A study of Mus musculus with 29 samples.

Results

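Tumour necrosis factor (Tnf), its receptors Tnfrsf1a (TNFR1) and Tnfrsf1b (TNFR2), and the related ligand Tnfsf9 (4-1BB ligand) were followed across every annotated cell type of brain and blood after experimental stroke in the mouse. These 4 genes were chosen by name, out of 19704 genes in the young brain tables, 27514 in the aged brain tables and 16623 in the blood tables, and all 4 were listed in each. Levels are given as CPM: the counts of a gene summed over all cells of one type in one library, divided by all counts of those cells and scaled to a total of 1e+06. In the brain of young mice, Tnf in granulocytes was higher at both times after stroke, Tnfrsf1a in endothelial cells was higher at day 2, and Tnfsf9 in microglia was higher at both times, in calls that were lost when certain single libraries were left out.

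Single cells were profiled by Drop-seq, which tags the transcripts of each cell in a droplet. C57BL/6J mice had transient middle cerebral artery occlusion (stroke) or a sham operation. The young mice were all male and 8 to 10 weeks old. Their brains gave 3 groups of 4 libraries, namely sham on day 2, stroke on day 2 and stroke on day 14. Their blood gave the same 3 groups with 4, 4 and 3 libraries. Aged brains, from mice of 17 to 20 months, gave 2 libraries after sham on day 2 (one of each sex), 3 after stroke on day 2 (1 from males, 2 from females) and 1 after stroke on day 14 (females). Age and sex therefore differ together between the young and the aged libraries. No sham library of day 14 is in the design, so both stroke times were set against the same day 2 sham libraries, and day 14 differences hold stroke and time since surgery together. Each brain library pooled 4 to 5 hemispheres and held endothelial cells, microglia and CD45high leukocytes obtained by sorting. Actinomycin D, a blocker of transcription, was present while brain and blood cells were isolated. Each blood library pooled 2 mice and held leukocytes left after lysis and removal of red cells. Since animals were pooled, p values measure the spread between pools.

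Tnf is a trimeric cytokine made as a membrane protein and released by the protease Adam17. Tnfrsf1a carries a death domain and is widely expressed, and through it Tnf can start NF-kB signalling or cell death. Tnfrsf1b lacks a death domain, is more restricted to leukocytes, endothelial cells and microglia, and responds best to membrane-bound Tnf. Tnfsf9 is a costimulatory ligand of antigen-presenting cells that binds Tnfrsf9 (4-1BB) and none of the receptors of Tnf. Tnf is known as an early cytokine of the ischaemic brain, and its own gene is a target of NF-kB.

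In the GRCm38 build, Tnf spans chr17:35199381-35202007 on the minus strand, with Lta 1158 bp and Ltb 3061 bp away. Tnfrsf1a spans chr6:125349362-125362484 on the plus strand, and Tnfrsf1b chr4:145213463-145246870 on the minus strand. Tnfsf9 spans chr17:57105325-57107757 on the plus strand and is overlapped by the antisense gene Gm11110. Whether counting used strand is not given in the sources used here, so reads of Tnfsf9 and Gm11110 cannot be told apart. The 250 bases before the RefSeq start of Tnf and Tnfrsf1a (GRCm38.p6, the strand of the gene) are shown because these 2 genes gave the most stable changes after stroke. The window of Tnfrsf1a lies inside the gene span given above, since the RefSeq start lies downstream of the start of that span. Its bases are thus upstream of the RefSeq start only. Capitals mark matches to a loose form of the NF-kB site (GGG, then any 5 bases, then CC) and to TATAAA. Both strands were searched.

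Tnf, chr17:35202008-35202257: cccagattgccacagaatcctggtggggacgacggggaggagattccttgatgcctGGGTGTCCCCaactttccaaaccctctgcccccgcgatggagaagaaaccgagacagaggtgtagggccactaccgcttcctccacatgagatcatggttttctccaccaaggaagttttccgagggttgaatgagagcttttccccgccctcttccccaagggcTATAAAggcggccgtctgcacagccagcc

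Tnfrsf1a, chr6:125349473-125349722: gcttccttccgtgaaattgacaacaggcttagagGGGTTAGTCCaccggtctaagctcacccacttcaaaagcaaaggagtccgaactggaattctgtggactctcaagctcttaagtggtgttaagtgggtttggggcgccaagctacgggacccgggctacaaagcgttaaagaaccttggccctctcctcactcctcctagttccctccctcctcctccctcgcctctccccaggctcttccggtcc

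The NF-kB letters lie at -194 to -185 from the start of Tnf, where they match on both strands, and at -216 to -207 from the start of Tnfrsf1a. The TATAAA of Tnf lies at -29 to -24 and overlaps no other match. The NF-kB letters are present in 45.8% of 32851 mouse promoter windows of this length and TATAAA in 12.4%, so a match is common by itself. TGANTCA, the AP-1 site, occurs in 6.75% of windows and in neither of these 2.

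The 29 libraries held 1143 to 6328 cells and 819438 to 5855047 counts, and the median cell of a library had 320.8 to 1363.2 counts. No 2 libraries shared more than 7 cell barcodes. Among the deposited brain types, microglia, endothelial cells, granulocytes, monocyte-derived cells, border-associated macrophages and T, B and NK cells had their own marker list highest. Dendritic cells of both tissues had the monocyte or macrophage list highest, with the dendritic list next. One library stood apart: stroke day 2 replicate 3 held 58 microglia against at least 618 in each other young brain library. Its microglia had 816.5 CPM of 5 microglial markers against 9804 to 11610 in the other day 2 libraries, and 3999 CPM of 5 monocyte markers against 520.2 to 1031. The day 2 results in microglia are given with and without it. How far the median gene moved against sham (log2) depends on the scaling: at day 14 it was -0.04 in microglia and -0.06 in granulocytes as scaled here, and -0.49 and 0.44 with library size alone. In monocyte-derived cells it was 0.29 at day 2 and 0.28 at day 14 as scaled, against -0.13 and -0.11 with library size alone.

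**Figure D1:**
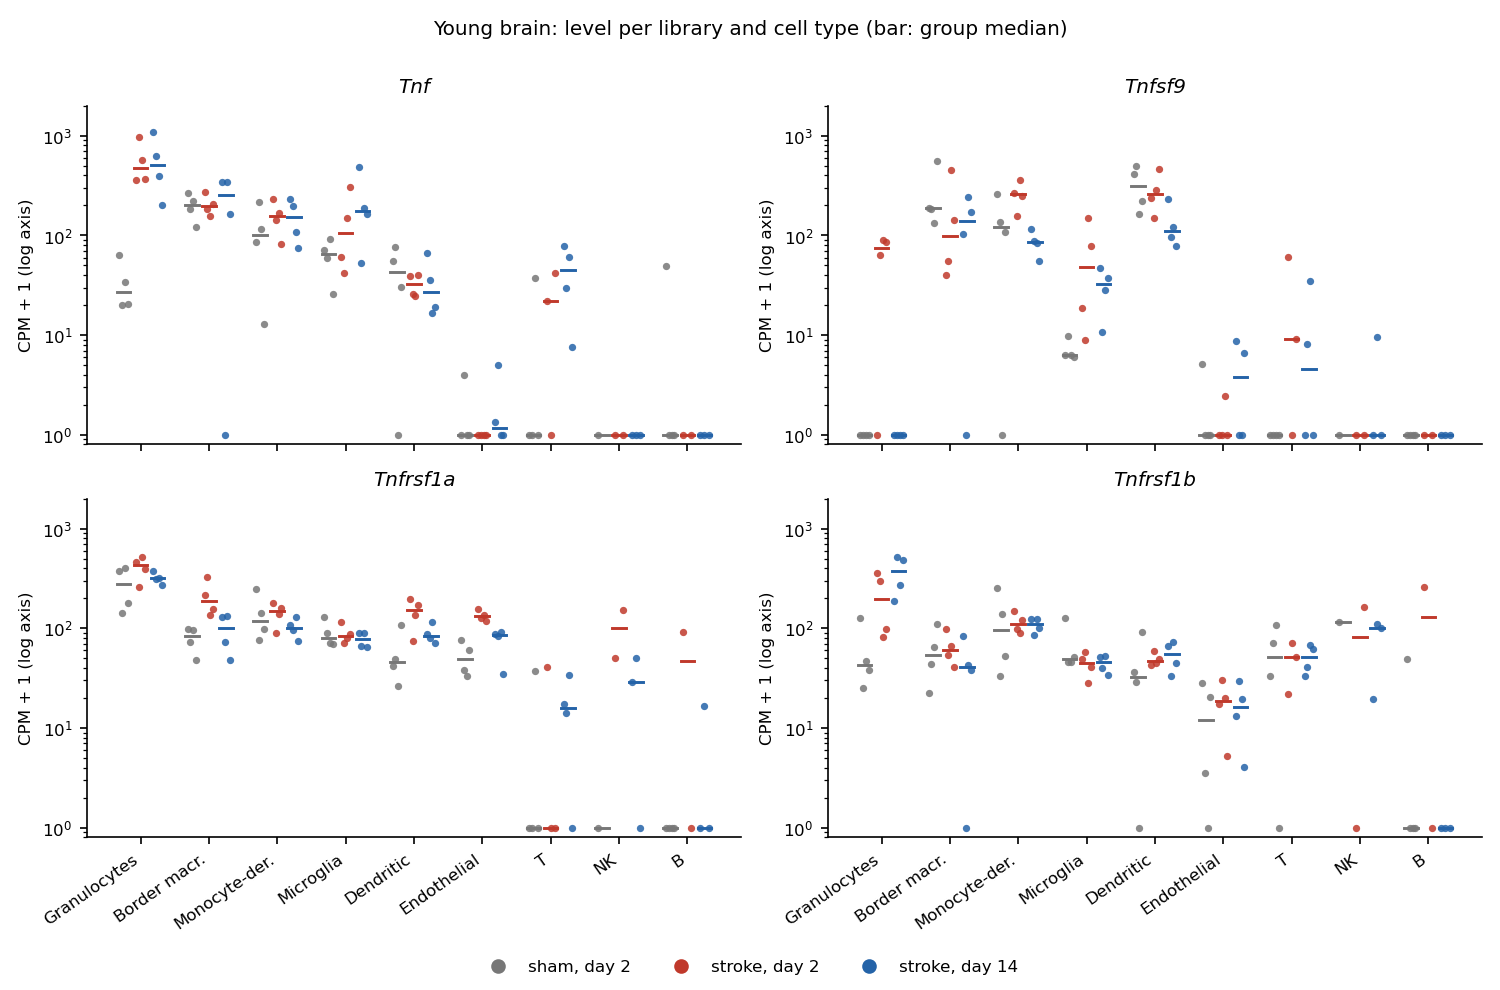
Level of the 4 genes in young brain, as CPM plus 1 on a log axis, for each library with at least 20 cells of the type. Points are libraries, bars are group medians, and colours are the 3 groups. Granulocyte Tnf of both stroke groups lies above sham, and endothelial Tnf lies at or near 0.

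Tnf was highest, by the median over young brain libraries of all 3 groups, in granulocytes (361.9 CPM), the neutrophil-like cells of the sorted leukocytes. Border-associated macrophages (196.4 CPM), monocyte-derived cells (129.7) and microglia (80.56) followed, and then dendritic cells (32.16) and T cells (21.02). Endothelial, B and NK cells had a median of 0. Within the same libraries, microglia exceeded dendritic cells in 10 of 12 (exact sign-flip test, adjusted p 0.0312 over 32 neighbouring pairs of all 4 genes). Both exceptions were sham libraries: replicate 2 (58.96 CPM in microglia, 74.95 in dendritic cells) and replicate 4 (24.66 and 29.54). This order therefore held in all 8 stroke libraries and not throughout sham. The order of granulocytes and border-associated macrophages went by group. Granulocytes were lower in all 4 sham libraries (means 33.42 and 196.6 CPM) and higher in all 8 stroke libraries, so the test over all 12 found no difference (exact sign-flip adjusted p 0.936). In sham, by the mean, granulocytes also lay below monocyte-derived cells (106.7 CPM), microglia (61.18) and dendritic cells (39.64). By library the order was mixed for 2 of these. Granulocytes lay above dendritic cells in sham replicate 1 (62.2 against 54.07 CPM) and replicate 3 (33.18 against 0). They lay above monocyte-derived cells in sham replicate 4 (19.29 against 11.96). Endothelial cells of the same libraries reached at most 3.959 CPM, and 9 of their 12 young libraries were listed at 0. These values rest on the fractional deposited counts: with each count rounded up, 27 Tnf counts stood in place of 1.86, the highest library was at 20.18 CPM and 5 of 12 were at 0.

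In granulocytes Tnf rose after stroke at both times. The 4 sham libraries were at 62.2, 19.03, 33.18 and 19.29 CPM. At day 2 the libraries were at 358.4, 979.3, 576.9 and 365.3 CPM. At day 14 they were at 1088, 624, 396.2 and 202 CPM. Every stroke library lay above every sham library, and the lowest of them was more than 3 times the highest sham value. Means were 33.42 ± 20.29 CPM in sham, 570.0 ± 291.1 at day 2 and 577.5 ± 381.5 at day 14 (SD, n = 4 each). The change was 14.4-fold at day 2 (log2 fold change 3.85 ± 0.61 SE, edgeR adjusted p 0.000718) and 12.3-fold at day 14 (3.62 ± 0.62, adjusted p 0.00026). Of 994 genes tested in granulocytes, 8.35% were called at day 2 and 26.1% at day 14. Of the 3 members tested there, Tnf was the 1 called at day 2, and Tnf and Tnfrsf1b were called at day 14. Day 14 did not differ from day 2 beyond the spread (-0.23 ± 0.49, adjusted p 0.854, 95% interval -1.19 to 0.72), a comparison in which 4.23% of genes were called. The share of granulocytes with at least 0.5 Tnf counts was 0.813% to 3.614% in sham libraries. It was 7.547% to 18.92% at day 2 and 4.724% to 27.78% at day 14. More cells thus held Tnf after stroke, without overlap with sham, and whether each of them held more of it was not tested.

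The depth behind these values is small. Granulocytes held 29 to 169 cells per library, and the sham values rest on 8.98 Tnf counts over 517 cells, against 93.52 counts over 350 cells at day 2 and 74.3 over 363 at day 14. Both Tnf calls were kept in all alternatives, with log2 fold changes of 3.48 to 4.29 and 3.09 to 4.14. The 5 neutrophil markers of granulocytes also differed between the groups, at 218700 to 287200 summed CPM in sham, 110600 to 202200 at day 2 and 52260 to 66370 at day 14. All 5 were present in the pooled granulocytes. The 5 monocyte markers summed to 6840 to 8981, 1352 to 5681 and 886.8 to 2927 CPM in the same order, and the 5 microglial markers to 94.26 to 361.4, 65.37 to 538.6 and 347.1 to 499.8 CPM. The part of these differences in the Tnf result was not tested. The authors' finer clusters split the same cells. Cluster Gran1, with 427 of the sham cells, was at 15.72 CPM of Tnf in sham and 22.08 at day 2. Cluster Gran2 was at 935.1 CPM at day 2 and 456.8 at day 14, and Gran3 at 644.5 CPM at day 14. Tnf is among the genes that such clusters could be built on, so this is a description.

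Microglial Tnf was higher at day 14. Sham libraries were at 70.23, 58.96, 90.89 and 24.66 CPM. Day 2 libraries were at 59.23, 40.83, 148.5 and 308.9 CPM, and day 14 libraries at 483.5, 51.96, 186.4 and 164.3 CPM. The groups overlapped: 3 of 4 day 14 libraries lay above all sham libraries, and replicate 2 lay inside the sham range. The day 14 change was 5.01-fold (2.32 ± 0.70, edgeR adjusted p 0.0403) among 15.2% of 10145 genes called. It was lost without any of the 4 sham libraries (adjusted p 0.0765 to 0.123) or day 14 replicate 1 (1.61, adjusted p 0.134) or 3 (adjusted p 0.057), and with the replicate block (1.98, adjusted p 0.0623). The day 2 change was 1.42 ± 0.71 (adjusted p 0.136). Without day 2 replicate 4 it was 0.02 (adjusted p 0.992), and without the library of 58 microglia it was 1.46 (adjusted p 0.171).

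Other brain cells with Tnf showed no called change. In monocyte-derived cells, sham libraries were at 84.67, 213.9, 116.3 and 11.96 CPM, day 2 libraries at 230.3, 143.1, 165.9 and 80.5, and day 14 libraries at 230, 195.6, 108.2 and 73.95. All 3 groups overlapped, and the changes were 0.83 ± 0.52 (edgeR adjusted p 0.415) and 0.80 (adjusted p 0.497). Border-associated macrophages, the resident macrophages of meninges and vessels, had Tnf in sham already: 262.7, 185.3, 218.7 and 119.6 CPM. Their day 2 values of 271.9, 185.3, 154.9 and 207.6 CPM covered the same range (-0.06 ± 0.40, adjusted p 0.942). Day 14 values were 343.3, 0, 345 and 163.8 CPM, and the library at 0 held 20 cells. Of the 4 members, none was called in monocyte-derived cells against sham, where 6.71% of genes were called at day 2 and 5.15% at day 14. In border-associated macrophages 2 members had the counts to be tested and neither was called, among 2.67% of 1313 genes at day 2, 0.0762% at day 14 and 0.838% between the 2 times.

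**Figure D2:**
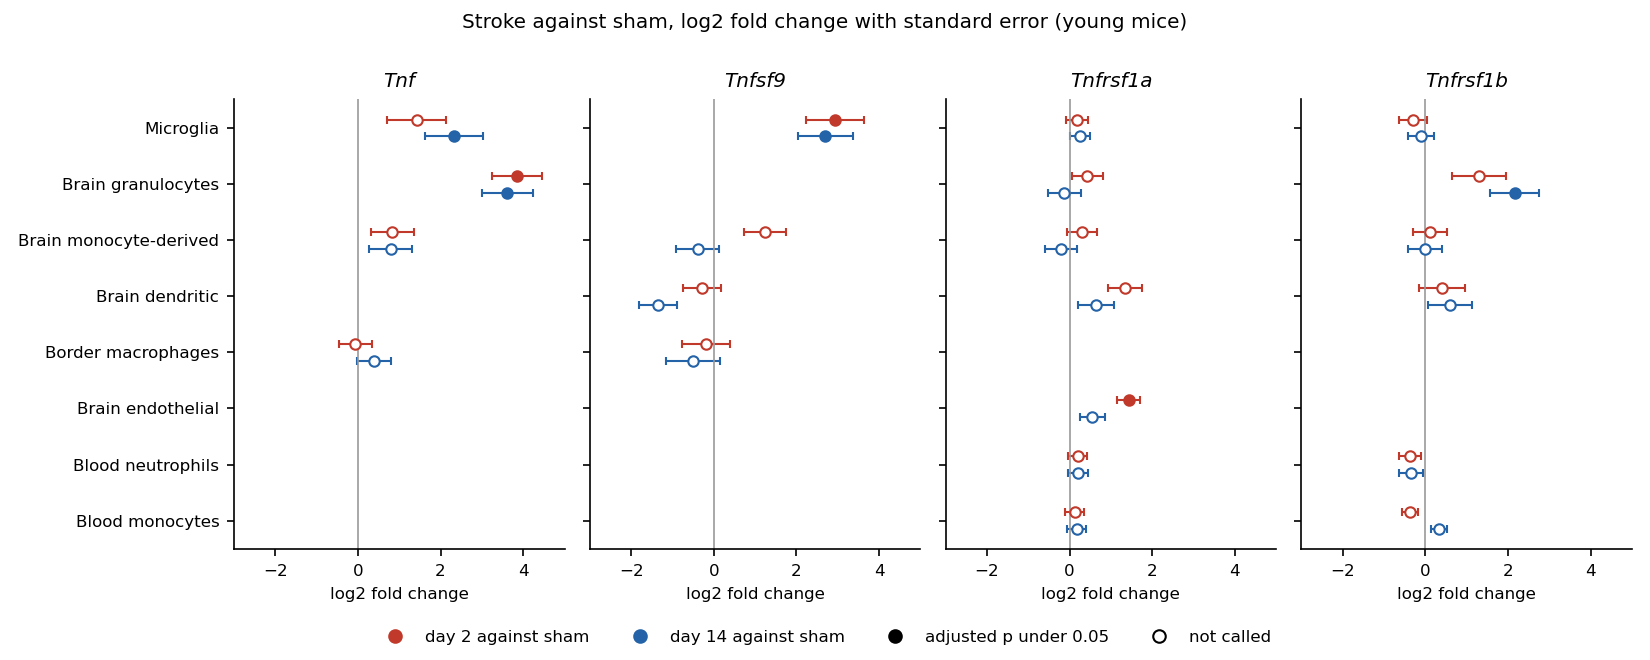
Log2 fold change of each gene against sham with its standard error, for 8 cell types of young mice. Filled points have an edgeR adjusted p under 0.05, and a missing point means too few counts for the test. Filled points stand for Tnf in granulocytes at both times, Tnf in microglia at day 14, Tnfsf9 in microglia at both times, Tnfrsf1a in endothelial cells at day 2 and Tnfrsf1b in granulocytes at day 14.

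Tnfsf9, the costimulatory ligand, had its highest medians in dendritic cells and macrophages. Its median over young brain libraries was 226.8 CPM in dendritic cells, 157.6 in border-associated macrophages, 124.8 in monocyte-derived cells and 13.68 in microglia. Granulocytes and endothelial, T, B and NK cells had a median of 0. Monocyte-derived cells exceeded microglia in 11 of 12 libraries (exact sign-flip test, adjusted p 0.0375), and microglia exceeded B cells in 9 of 9 (adjusted p 0.0312). B cells held no Tnfsf9 count, but a floor of 3 counts over a group of them was 37.43 to 81.59 CPM. This lies above the microglial mean of each group, so the test cannot tell a lower level in B cells from their low depth. Border-associated macrophages were separated neither from dendritic nor from monocyte-derived cells, and those 2 were not tested against each other.

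In microglia Tnfsf9 rose from a low level. Sham libraries were at 5.386, 8.694, 5.38 and 5.006 CPM. Day 2 libraries were at 17.53, 7.999, 148.8 and 77.13 CPM, and day 14 libraries at 46.31, 9.829, 27.6 and 36.25 CPM. All day 14 libraries lay above sham, while day 2 replicate 2 lay inside the sham range. Means were 6.117 ± 1.728, 62.86 ± 64.95 and 30.0 ± 15.47 CPM (SD, n = 4 each). The day 2 mean holds the 148.8 CPM of the library of 58 microglia, and the day 2 median was 47.33 CPM. The day 2 change was 7.66-fold (2.94 ± 0.70, edgeR adjusted p 0.00735), and Tnfsf9 was the 1 member called of 4 at day 2 among 31.4% of all genes. The day 14 change was 6.52-fold (2.70 ± 0.67, adjusted p 0.0168), and with Tnf this made 2 of 4 members called among 15.2% of all genes. Between day 14 and day 2 no member was called, among 6.93% of genes, and Tnfsf9 differed by -0.23 ± 0.63 (adjusted p 0.898), or -0.07 (adjusted p 0.97) without the library of 58 microglia.

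Single libraries carried part of this result. The library of 58 microglia was the highest at 148.8 CPM, which rests on 3.92 counts and was 108.8 CPM with counts rounded up. Only 1 of its cells had at least 0.5 Tnfsf9 counts. Without it the day 2 change was 2.77 (adjusted p 0.0144). Without day 2 replicate 4 it was 1.77 and was lost (adjusted p 0.106). The day 14 call was lost without sham replicate 3 (adjusted p 0.0595), sham replicate 4 (adjusted p 0.0678) or day 14 replicate 1 (2.42, adjusted p 0.0507). The 5 monocyte markers in microglia moved the same way, from 234.8 to 396.6 summed CPM in sham to 520.2 to 3999 at day 2 and 2130 to 3079 at day 14, and none was at 0 in pooled microglia. Microglial markers were at 13590 to 20000, 816.5 to 11610 and 9333 to 12830 CPM. Their part in the Tnfsf9 and Tnf results was not tested. By the authors' clusters, the largest sham cluster (Mg1, 5826 cells) had 0.5002 CPM of Tnfsf9 and 17.85 of Tnf. The cluster with the most day 2 cells (Mg4) had 77.32 and 195.0 CPM, and Mg3, with 3415 day 14 cells, had 241.4 CPM of Tnf. Cluster Mg7 of day 14 was at 59.07 CPM of Tnfsf9.

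In monocyte-derived cells, the infiltrating monocytes and macrophages, Tnfsf9 differed between the 2 stroke times without passing the threshold. Day 2 libraries were at 267.2, 156.8, 357.9 and 249.3 CPM and day 14 libraries at 114.7, 87.04, 83.05 and 53.92 CPM, with no overlap. Sham libraries spread from 0 to 256.9 CPM over 43 to 99 cells each and overlapped with both. Day 14 minus day 2 was -1.64 ± 0.44 (edgeR adjusted p 0.077; 1.79% of 8080 genes were called). The value passed with DESeq2 (adjusted p 0.0127), with only the 2 stroke groups in the fit (0.0383) and with the replicate block (0.00149). Against sham it was 1.25 ± 0.51 at day 2 (adjusted p 0.168) and -0.39 ± 0.52 at day 14 (adjusted p 0.805). Among the authors' clusters at day 2, MdC2 was at 412.2 CPM and MdC5 at 361.8, against 119.2 in MdC3. Cluster MdC6 was at 47.46 CPM at day 14.

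Dendritic cells had 410.7, 496.2, 163.9 and 221.1 CPM of Tnfsf9 in sham, 234, 147.8, 282.7 and 461.7 at day 2 and 232.5, 95.25, 121.9 and 77.61 at day 14. The groups overlapped, and the day 14 change was -1.35 ± 0.47 (edgeR adjusted p 0.212), with none of the 3 members tested called among 1.53% of genes. Between day 14 and day 2 none was called either (0.893% of genes). Granulocytes had no Tnfsf9 count in sham or at day 14, while 3 of 4 day 2 libraries were at 63.17, 89.94 and 85.17 CPM. Pooled, the 14.18 counts of day 2 were 7.3-fold above a floor of 3 counts over the sham group and 4.13-fold above that of day 14. Tnfsf9 had too few counts in granulocytes for the fit. These ratios leave out the counting error of the day 2 counts and the spread between libraries.

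Tnfrsf1a, the death-domain receptor, was highest in granulocytes (median 349.6 CPM over young brain libraries). Monocyte-derived cells followed at 118.0 CPM, border-associated macrophages at 112.5, endothelial cells at 84.66, microglia and dendritic cells at 82.8 each, and NK cells at 38.49. Granulocytes exceeded monocyte-derived cells in 12 of 12 libraries (exact sign-flip test, adjusted p 0.0156; the raw p of 0.000488 is the smallest that 12 pairs allow). Border-associated macrophages exceeded endothelial cells in 9 of 12 (adjusted p 0.0417). The other neighbours down to NK cells did not differ beyond their spread.

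Endothelial Tnfrsf1a rose at day 2. Sham libraries were at 74.82, 36.94, 32.39 and 60.31 CPM. Day 2 libraries were at 154.2, 126.9, 135.8 and 116.9 CPM, and day 14 libraries at 86.89, 82.44, 91.27 and 33.51 CPM. All day 2 libraries lay above every sham and every day 14 library, and day 14 overlapped with sham. Means were 51.11 ± 19.98, 133.5 ± 15.84 and 73.53 ± 26.92 CPM (SD, n = 4 each). The day 2 change was 2.70-fold (1.43 ± 0.28, edgeR adjusted p 0.00448), and Tnfrsf1a, the 1 member with the counts for a test, was among 13.3% of 5833 genes called. It was called in every alternative, with 1.32 to 1.70. Day 14 against sham was 0.55 ± 0.30 (adjusted p 0.882, 95% interval -0.04 to 1.13), in a comparison with 0 of 5833 genes called (356 at an unadjusted p under 0.05, and 10 by DESeq2). Day 14 lay below day 2 (-0.89 ± 0.26, adjusted p 0.0361; 11.2% of genes called), but this call was lost with library size alone (adjusted p 0.0855), with no filter on low counts (0.0997) and without 7 of the 8 libraries, one at a time.

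Microglial markers were low in the endothelial sums, and the part of other cells in the Tnfrsf1a result was not tested. The 5 microglial markers reached at most 60.86 CPM in any young endothelial library, and P2ry12 and Siglech were at 0 over all of them. The 5 monocyte markers lay at 203.7 to 572.6 CPM in sham, 131.8 to 804.2 at day 2 and 80.41 to 850.4 at day 14, with overlap of all 3 groups. Endothelial markers lay at 14220 to 23620, 12120 to 15300 and 15330 to 17410 CPM. Endothelial Tnfrsf1b was at 0 to 29.59 CPM in the 12 young libraries, and was not tested. By the authors' clusters, EC1 was at 46.74 CPM of Tnfrsf1a in sham, 131.8 at day 2 and 48.17 at day 14, and EC2, with 1017 of its cells at day 2 and 54 in sham, was at 135.8 CPM at day 2.

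Border-associated macrophages had too few Tnfrsf1a counts for the fit. Their libraries were at 96.61, 71.45, 95.6 and 47.1 CPM in sham, 216.8, 327.8, 135.5 and 153.8 at day 2 and 128.4, 72.43, 133.3 and 46.96 at day 14. All day 2 libraries lay above sham and above day 14, and this difference was not tested. In the other brain cells tested, namely microglia, granulocytes, monocyte-derived cells and dendritic cells, Tnfrsf1a showed no called change. Microglia were narrow, with all 12 libraries between 64.22 and 128.6 CPM, and changed by 0.18 ± 0.26 at day 2 (edgeR adjusted p 0.615, 95% interval -0.32 to 0.68) and 0.25 ± 0.24 at day 14 (-0.22 to 0.73). The signs depend on the scaling: the day 14 change was -0.21 with library size alone and the day 2 change -0.04 with DESeq2. The intervals leave out a doubling in either direction. Without the library of 58 microglia the day 2 change was 0.22 (adjusted p 0.545). Granulocytes were at 377.8, 143, 398.1 and 177.3 CPM in sham, 464.4, 261.6, 516.1 and 394 at day 2 and 379.3, 312.1, 321.4 and 273.8 at day 14. These overlapped (0.43 ± 0.38, adjusted p 0.546, and -0.13 ± 0.40, adjusted p 0.854), and with library size alone the day 14 change was 0.36. Dendritic cells were at 41.3, 48.77, 25.68 and 106.1 CPM in sham and 194, 72.92, 134.7 and 170.2 at day 2. In 3 of 4 day 2 libraries they lay above all sham libraries, and the change of 1.34 ± 0.42 did not pass (adjusted p 0.143; 1.01% of genes called).

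Tnfrsf1b, the receptor without a death domain, had its highest median in granulocytes (158.1 CPM), followed by monocyte-derived cells (109.2) and NK cells (105.2). T cells (50.64), border-associated macrophages (48.3), microglia (46.91) and dendritic cells (43.99) came next, then endothelial cells at 17.49 CPM and B cells at 0. Dendritic cells exceeded endothelial cells in 11 of 12 libraries (exact sign-flip test, adjusted p 0.0156), and no other neighbours differed beyond their spread. The first rank of granulocytes came from the stroke groups: in sham they lay below monocyte-derived cells in all 4 libraries (means 58.65 and 119.6 CPM). At day 2 granulocytes lay above monocyte-derived cells in 2 libraries and below in 2 (means 209.3 and 114.3 CPM), and at day 14 above them in all 4.

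In granulocytes Tnfrsf1b was higher at day 14. Sham libraries were at 127.5, 24.04, 45.62 and 37.43 CPM, day 2 libraries at 359.6, 297.7, 81.16 and 98.65, and day 14 libraries at 188.7, 520.2, 270.2 and 482.4. Day 14 lay above sham in all libraries, and day 2 overlapped with it. The changes were 4.48-fold at day 14 (2.16 ± 0.60, edgeR adjusted p 0.0128) and 1.29 ± 0.65 at day 2 (adjusted p 0.258). The day 14 call was lost with no filter on low counts and without sham replicate 2 or day 14 replicate 4. The granulocyte marker values given beside Tnf apply here too, and their part was not tested. Microglia, whose Tnfrsf1b ran from 27.32 to 127.5 CPM over the 12 libraries, changed by -0.29 ± 0.34 at day 2 (adjusted p 0.522; -0.27, adjusted p 0.58, without the library of 58 microglia) and -0.11 ± 0.31 at day 14 (adjusted p 0.837). Monocyte-derived cells were at 32.41 to 256 CPM in sham, 89.63 to 150 at day 2 and 84.94 to 122.7 at day 14, with overlap throughout.

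In blood the ligands were low, with the highest median for Tnfsf9 in dendritic cells. Tnf had its highest median in monocytes (7.313 CPM), and its largest value in neutrophils was 18.66 CPM, at day 14. A higher value, 31.92 CPM in 38 cells of sham replicate 2 that the deposited annotation calls pre, was a single count. Tnfsf9 had its highest median in dendritic cells (25.84 CPM over 6 libraries, and 49.08 ± 33.45 CPM in the 3 of day 14) and was at most 9.41 CPM in neutrophils. The dendritic value rests on 16 counts, rounded up, over the 6 libraries. Dendritic cells exceeded monocytes in 5 of 6 (exact sign-flip test, adjusted p 0.15). Single libraries reached 23.02 CPM in monocytes and 28.64 in NK cells. Neutrophils had 2.492, 4.543, 3.028 and 0 CPM of Tnfsf9 in sham, 8.16, 9.41, 4.098 and 5.187 at day 2 and 0 in each library at day 14. The day 2 sum of 41.37 counts was 3.05-fold above a floor of 3 counts over the day 14 group, without the counting error of the day 2 sum. Neither ligand had the counts for a test in neutrophils or monocytes.

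**Figure D3:**
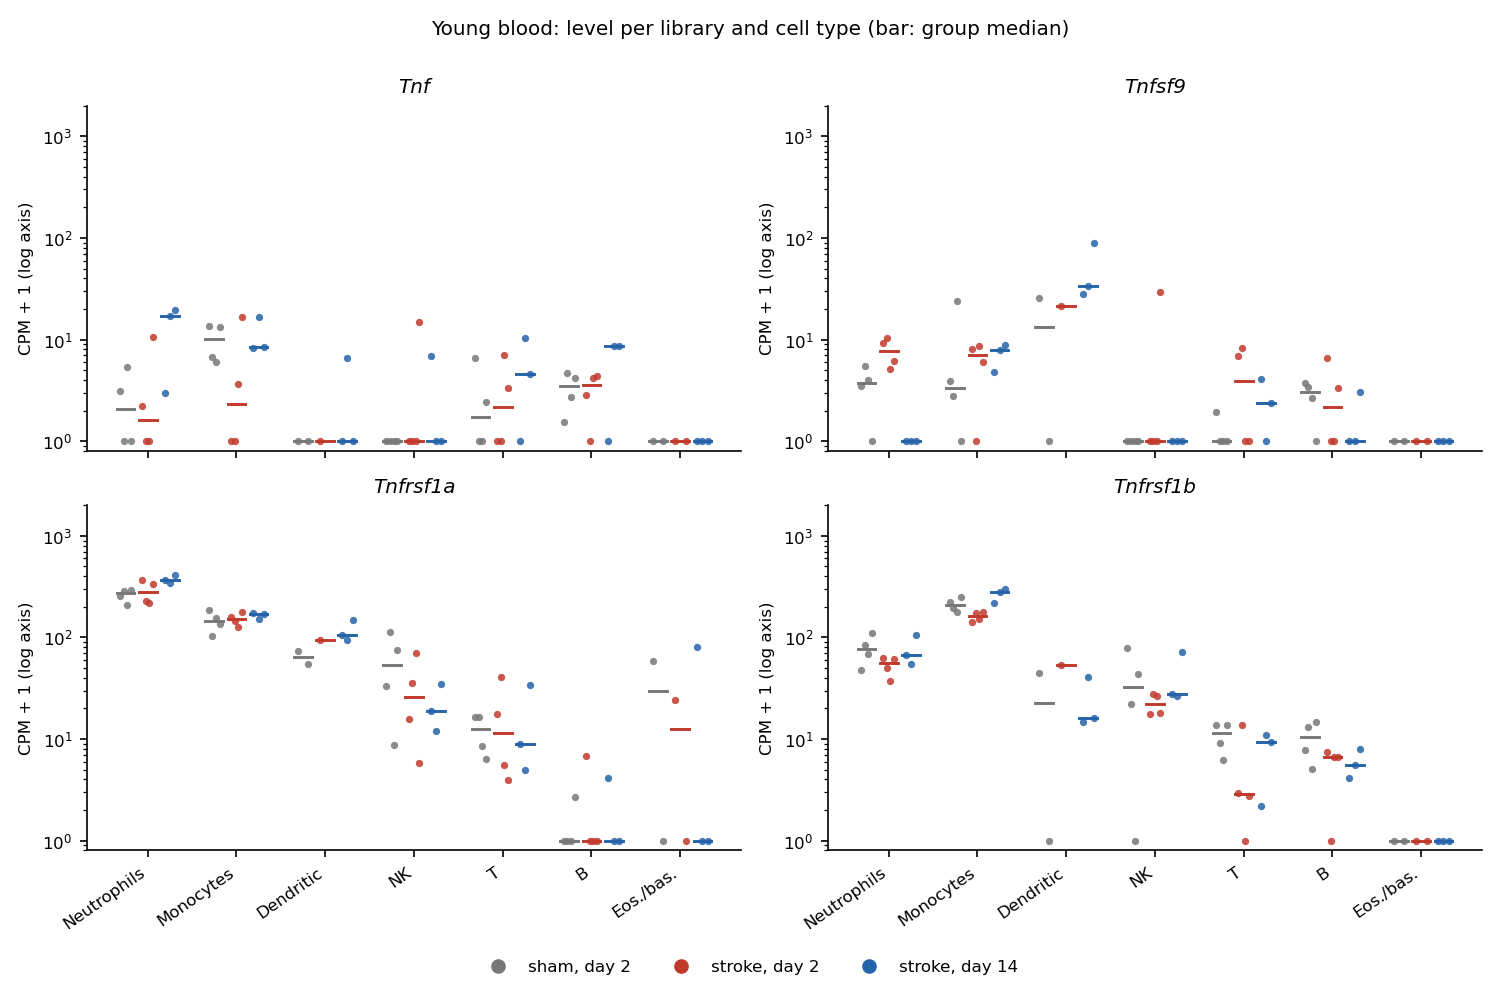
Level of the 4 genes in young blood, as CPM plus 1 on a log axis, for each library with at least 20 cells of the type. Points are libraries, bars are group medians, and colours are the 3 groups. Tnfrsf1a is highest in neutrophils and Tnfrsf1b in monocytes, and both ligands stay under 100 CPM.

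The receptors divided between the 2 main myeloid cells of blood. Tnfrsf1a was higher in neutrophils (median 289.5 CPM) than in monocytes (153.1) in 11 of 11 libraries, and Tnfrsf1b was higher in monocytes (192.0) than in neutrophils (61.36) in 11 of 11 (exact sign-flip test, adjusted p 0.0117 each over 24 neighbouring pairs). Dendritic cells had 94.02 CPM of Tnfrsf1a, NK cells 32.08, T cells 8.032 and B cells 0. Stroke changed neither receptor beyond the spread. Neutrophil Tnfrsf1a was at 255.7, 288.6, 209.9 and 289.5 CPM in sham, 370.6, 226.9, 217.4 and 333.9 at day 2 and 370.7, 345.6 and 410.6 at day 14. All 3 day 14 libraries lay above sham in CPM, yet the scaled change was 0.20 ± 0.25 (edgeR adjusted p 0.728), and 0.54 with library size alone (adjusted p 0.135), a scaling under which the median gene stood at 0.36 instead of 0.02. Of the 2 receptors none was called among 5.99% of 4944 genes, nor between day 14 and day 2 (4.69%). At day 2, 0 genes were called in neutrophils (209 at an unadjusted p under 0.05, 0 by DESeq2) and 0 in monocytes (189 and 0), and the change of neutrophil Tnfrsf1a was 0.20 ± 0.23 (95% interval -0.25 to 0.65).

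Monocyte Tnfrsf1b was at 220, 192, 176.4 and 248.3 CPM in sham, 139.7, 172.6, 150.7 and 175.8 at day 2 and 217.3, 279.6 and 300.8 at day 14. All day 2 libraries lay below sham and below day 14. Day 14 minus day 2 was 0.71 ± 0.20, with an unadjusted p of 0.00283 that did not pass over all genes (edgeR adjusted p 0.182; 0.537% of genes called). Against sham the changes were -0.38 ± 0.19 at day 2 (adjusted p 1.0) and 0.33 ± 0.20 at day 14 (adjusted p 0.999; 0.254% called).

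Brain and blood were prepared and tabulated separately, so their levels were set side by side and then tested with an exact permutation test of log2(CPM + 1), chosen after the data were seen. Tnf was at 358.4 to 979.3 CPM in brain granulocytes and 0 to 9.536 in blood neutrophils at day 2, and at 202 to 1088 against 1.975 to 18.66 at day 14. In sham it was at 19.03 to 62.2 against 0 to 4.397 CPM. Monocyte-derived cells of the brain had 80.5 to 230.3 CPM of Tnf at day 2 against 0 to 15.81 in blood monocytes, and 156.8 to 357.9 CPM of Tnfsf9 against 0 to 7.716. Tnfrsf1b was higher in brain granulocytes than in blood neutrophils, at 81.16 to 359.6 against 36.59 to 61.36 CPM at day 2 and 188.7 to 520.2 against 54.37 to 105.9 at day 14. It was lower in monocyte-derived cells than in blood monocytes at day 14, at 84.94 to 122.7 against 217.3 to 300.8 CPM. None of these ranges overlapped. With 4 libraries against 4 or 3 the exact permutation p cannot go below 0.0286, which became 0.0686 after adjustment over 24 tests, so none passed.

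Aged mice were compared at day 2, with 2 sham and 3 stroke libraries. Endothelial Tnfrsf1a was at 66.96 and 47.84 CPM in aged sham and 163.7, 176 and 139.6 after stroke, without overlap. The change of 1.45 ± 0.33 missed the threshold (edgeR adjusted p 0.0577; 0.606% of genes called). The difference of the stroke effect between aged and young was 0.01 ± 0.53 (95% interval -1.03 to 1.04). Granulocyte Tnf was at 151.4 and 0 CPM in aged sham, from 4.97 counts, and at 390.4, 683.1 and 280.7 CPM after stroke (2.29 ± 0.80, adjusted p 0.134; 3.14% called). The difference from the young effect was -1.50 ± 1.09 (adjusted p 0.978).

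Tnfsf9 in aged monocyte-derived cells was called. The sham libraries were at 34.99 and 0 CPM over 33 and 52 cells, and the stroke libraries at 524.5, 173 and 329 CPM. All stroke libraries lay above both sham libraries (log2 fold change 5.09 ± 1.26, edgeR adjusted p 0.039; 1 of 4 members, 2.56% of genes called). Since sham held 1 count against 694, the pooled ratio was 20.8 with a 95% counting interval of 3.72 to 823.0. The call was lost with library size alone, DESeq2 (adjusted p 0.0556), only the aged groups in the fit (0.0603) and without 4 of 5 libraries, one at a time. The difference from the young effect was 3.80 ± 1.55 (unadjusted p 0.025, adjusted p 0.828). In the same cells neutrophil markers summed to 690.9 to 1283 CPM in sham and 230.5 to 5200 after stroke, and monocyte markers to 34660 to 42810 and 22750 to 28750 CPM; their part in the result was not tested. Tnf in these cells changed by 2.55 ± 0.84 (adjusted p 0.12), with 69.85 and 54.71 CPM in sham and 261.4, 115.8 and 307.5 after stroke. In aged microglia none of the 4 members was called among 2.3% of genes, and Tnfsf9 was at 0 and 7.474 CPM in sham and 33.24, 51.23 and 0 after stroke (2.69 ± 1.10, adjusted p 0.229). Over all genes, no difference between the aged and young effect was called in microglia, endothelial cells, monocyte-derived cells or granulocytes (623, 356, 473 and 61 at an unadjusted p under 0.05, and 1, 0, 1 and 0 by DESeq2).

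**Figure D4:**
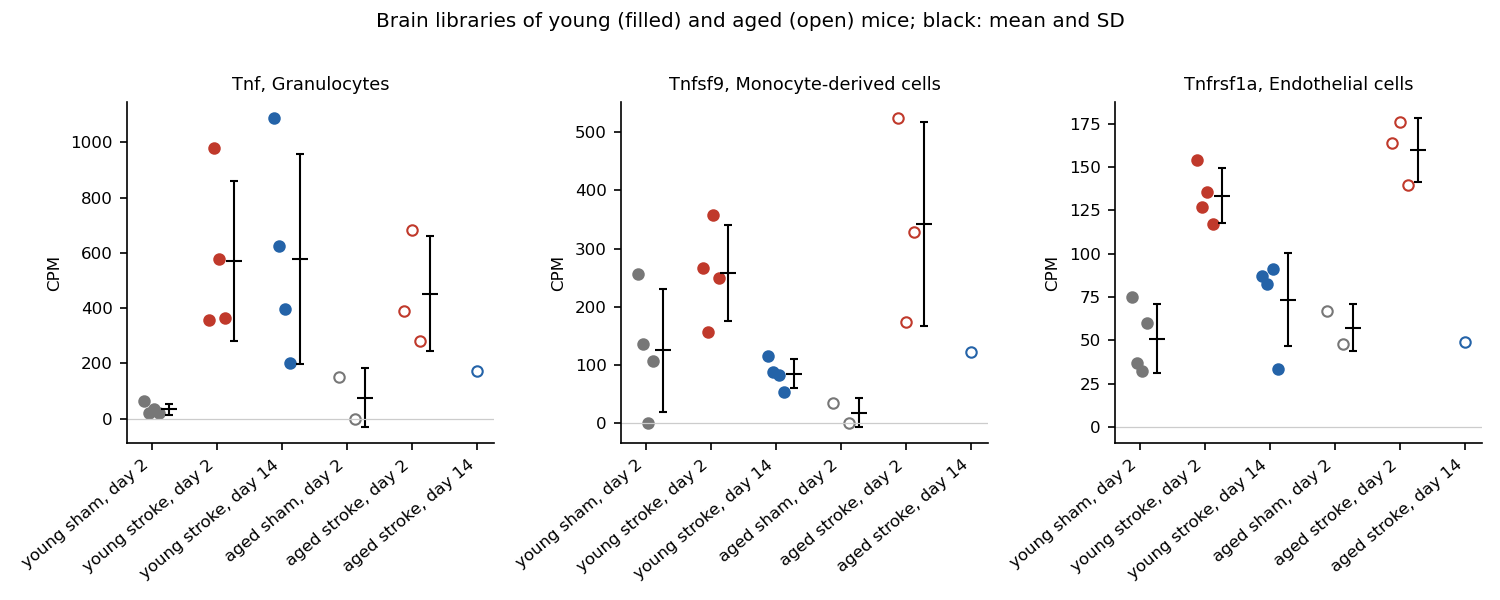
CPM per library of Tnf in granulocytes, Tnfsf9 in monocyte-derived cells and Tnfrsf1a in endothelial cells of the brain, for young (filled) and aged (open) groups, on linear axes. Black bars are mean and SD. In all 3 panels every aged stroke day 2 library lies above both aged sham libraries.

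The wider pathway was read from 82 genes in 6 lists: the receptor complex, the death arm, NF-kB subunits and their inhibitors, shedding and mRNA control, and other ligands and receptors of the family. In granulocytes 8 of the 82 had the counts for a test. At day 2, 2 rose and none fell (median log2 fold change 0.72, against -0.01 for all genes, of which 5.53% rose and 2.82% fell). At day 14, 3 rose and none fell (0.51 against -0.06), while of all 994 genes 129 rose and 130 fell. Nfkbia, the inhibitor that NF-kB itself induces, went from 1733 ± 486.1 CPM in sham to 8407 ± 1212 at day 2 and 13300 ± 3059 at day 14 (n = 4 each). Its changes were 2.10 ± 0.32 (edgeR adjusted p 0.000718) and 2.55 ± 0.33 (adjusted p 1.45e-05). Zfp36 encodes tristetraprolin, which speeds the decay of Tnf mRNA, and it rose from 518.3 CPM to 1371 at day 2 (1.27, adjusted p 0.0268) and 2325 at day 14 (1.81, adjusted p 0.0008). Its day 2 call was lost in 7 of 15 alternatives. Tnfaip3, the feedback enzyme A20, rose from 65.09 to 606.9 CPM at day 14 (2.63 ± 0.64, adjusted p 0.00547). With no filter on low counts, Nfkbia at day 2 (adjusted p 0.0692) and Zfp36 at day 14 (0.0927) did not pass.

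In microglia 49 of the 82 genes were tested, and at day 2, 1 was higher and 9 were lower (median -0.45, against -0.05 for all genes, of which 15.7% were higher and 15.7% lower). Without the library of 58 microglia 1 was higher and 8 were lower, and without day 2 replicate 4 or sham replicate 4 the counts were 0 and 5, and 1 and 4. Scaling moved the median of all genes to -0.22 with library size alone and -0.28 with DESeq2, where 13 and 16 were lower. Cflar, which blocks caspase 8 at the death receptors, fell from 295.3 ± 47.76 to 97.23 ± 22.74 CPM (-1.38 ± 0.25, edgeR adjusted p 0.00167). Zfp36l2, a relative of Zfp36, fell from 222.0 to 59.5 CPM (-1.67, adjusted p 0.001), and Rel, an NF-kB subunit, from 163.6 to 57.24 CPM (-1.44, adjusted p 0.00975). Ripk3, the kinase of necroptosis, was the 1 that rose, from 2.928 to 6.342 CPM in sham to 8.56 to 30.63 CPM (1.72 ± 0.43, adjusted p 0.00969). Without the library of 58 microglia these 4 were still called, with changes of -1.34, -1.63, -1.46 and 1.65. Over all alternatives the call of Rel was lost in 1 of 14 and that of Ripk3 in 1 of 13, and those of Cflar and Zfp36l2 in 0 of 14. Tnfrsf17, a receptor known from plasma cells, fell from 38.19 to 7.149 CPM (-1.90, adjusted p 0.00749). Tab2, Birc2, Nfkb1, Cyld and Tnfrsf13b were the other 5 that fell, with changes of -1.34 to -0.87, calls lost in 3, 6, 2, 9 and 4 of 14 alternatives in that order. The monocyte and microglial markers given beside Tnfsf9 moved with these genes too, and Ripk3 was at 44.07 CPM in monocyte-derived cells of day 2. Their part was not tested. At day 14, 3 were higher and 3 lower (median 0.05; 10.6% of all genes were higher and 4.66% lower). Tnfsf8, the CD30 ligand, was among the higher, with 0.8008 CPM in sham and 13.85 at day 14 (4.09 ± 0.78, adjusted p 0.00352).

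In endothelial cells 30 of the 82 were tested, with 1 higher and 1 lower at day 2 (median -0.28; 6.89% of all genes were higher and 6.45% lower). Timp3, an inhibitor of Adam17 and other metalloproteinases, fell from 1387 ± 265.4 to 541.8 ± 169.6 CPM (-1.26 ± 0.30, edgeR adjusted p 0.0133). Tnfrsf12a, the receptor of TWEAK, rose from 87.11 to 163.1 CPM (0.92 ± 0.29, adjusted p 0.0443), a call lost in 11 of 14 alternatives, and was at 71.95 CPM at day 14 (-1.37 against day 2, adjusted p 0.00863). Zfp36 went from 187.6 CPM at day 2 to 651.5 ± 457.4 at day 14 (1.69, adjusted p 0.0234, lost in 4 of 14 alternatives), and the libraries of the 2 days overlapped. In monocyte-derived cells 52 were tested, with 3 higher and none lower at day 2 (5.66% and 1.05% of all genes). Tnfsf12, which encodes TWEAK, rose at day 2 from 19.88 to 91.71 CPM (2.49 ± 0.48, adjusted p 0.00597). Mlkl, the effector of necroptosis, was listed at 0 in all 4 sham libraries and at 10.79 to 21.2 CPM at day 2 (adjusted p 0.0325, lost in 8 of 13 alternatives). A floor of 3 counts over these sham cells is 13.13 CPM, inside the day 2 range, so the sham value lies near the limit of counting. Zfp36 went from 1088 to 1745 CPM at day 2 (1.17, adjusted p 0.0386, lost in 10 of 15). Between day 2 and day 14, Tnfsf8 went from 2.493 to 33.74 CPM (3.64 ± 0.55, adjusted p 0.00365) and Ripk3 from 44.07 to 13.98 CPM (-1.67, adjusted p 0.0191, lost in 5 of 15 alternatives). In aged monocyte-derived cells 47 were tested, and 4 rose at day 2, namely Cflar (2.91), Tnfaip3 (3.01), Nfkbia (2.46) and Zfp36 (1.67), where 2.56% of all genes were called in either direction. Their adjusted p was 0.0252 to 0.0482, and each was lost in 6 to 10 of 12 alternatives. With library size alone 0 of the 47 were called and with DESeq2 2, and the median of all genes was -0.22 and -0.07 there against 0.44 as scaled. Blood monocytes had 40 of the 82 tested and none called at any contrast. Few of all 6706 genes were called there either: 0 at day 2 and 0.254% at day 14 against sham, and 0.537% between the times. Blood neutrophils had 38 tested, and Zfp36l1 was the 1 called against sham, lower at day 14 (-1.25, adjusted p 0.0435, among 5.99% of genes), a call lost in 7 of 13 alternatives. Between day 14 and day 2, Zfp36l1 (-1.38, adjusted p 0.0311) and Birc3, a ubiquitin ligase of the receptor complex (-0.90, adjusted p 0.0244), were lower, calls lost in 6 and 5 of 13 alternatives.

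Patterns across the young brain were compared over 24 pools of one cell type and group with at least 100 cells, for 14846 genes, by Pearson correlation of log2(CPM + 1). This is across pools that share libraries and depth, and is a description. The genes most like Tnf were Lrrc25 (r 0.914), Nlrp3 (0.889), which encodes an inflammasome sensor, and Tlr2 (0.888), a receptor for microbial lipoproteins. Those most like Tnfrsf1a were Socs3 (0.9), Fndc3b (0.876) and Atp6v0d1 (0.875). Tnfrsf1b was most like Irf1 (0.894), Arrdc4 (0.854) and Dleu2 (0.847), and Tnfsf9 most like Sh3pxd2b (0.859), Ms4a6d (0.849) and Ptpro (0.843). Among the members, Tnf correlated with Tnfrsf1b at 0.692, with Tnfsf9 at 0.604 and with Tnfrsf1a at 0.476.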

How the data were processed

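Deposited tables give estimated counts per gene and cell, which the authors made and which mostly lie a little below whole numbers (2.81% to 14.4% of the rounded-up total is missing per library, and far more for some low genes, such as Tnf in endothelial cells). The step that made them so, the aligner and the strand setting are not given in the sources used here. The build mm10 and Seurat are named per the submitters' processing notes. The authors' metadata give total counts per cell, which equal the column sums, counts of genes detected, a percent of mitochondrial counts, and cell types at 2 levels. All deposited cells were kept, and no doublet caller was run.

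Counts were summed per library and type, rounded, and fitted with edgeR 4.0.16 (R 4.3.3): TMM, filterByExpr, quasi-likelihood F test, two-sided, Benjamini-Hochberg over all genes tested, called at an adjusted p under 0.05. Libraries needed 20 cells of the type, and each group 2 libraries. Standard errors are the log2 fold change over the square root of F. Young brain, blood and the day 2 brain groups with aged mice were fitted separately. Order of types used exact paired sign-flip tests on log2(CPM + 1). Scripts were tested on simulated data. Alternatives were library size alone, DESeq2 1.42.0, no filter, counts rounded up, 50 cells, a replicate block, only the compared groups, sex as a covariate and each library left out. The members and lists were chosen with earlier results of these data known. The 4 members were always named, with at most 3 called genes of each list per comparison.

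Floors of 3 counts and the counting interval of the pooled ratio cover counting error only. The 95% intervals of log2 fold changes reach 1.96 standard errors to each side, so they include the spread between libraries.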

Additional observations from a re-analysis of the deposited data

Results flagged for a closer look

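Of 59 groups of 4 libraries examined, 4 held a library far from the other 3, where chance gives about 1 in 20. Tnfsf9 in border-associated macrophages of sham replicate 4 was 559.7 CPM, against 132.5 to 189.0 in the other sham libraries, from 52 cells. Tnfrsf1a in endothelial cells of stroke day 14 replicate 4 was 33.51 CPM, against 82.44 to 91.27. Tnfrsf1b in microglia of sham replicate 1 was 127.5 CPM, against 44.86 to 50.51, and Tnfsf9 in microglia of sham replicate 2 was 8.694 CPM, against 5.006 to 5.386.

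The 1 aged library of stroke day 14 entered no comparison. In microglia, monocyte-derived cells and T cells, it lay above both aged sham libraries, on at least 3 counts, for 6 values: Tnf in microglia at 140.0 CPM (61.68 and 103.1 in sham), Tnfsf9 in microglia at 32.47 CPM (0 and 7.474), Tnfrsf1b in monocyte-derived cells at 142.9 CPM (25.15 and 104.9) and Tnfsf9 in those cells at 121.7 CPM (0 and 34.99). In T cells Tnfrsf1a was at 20.09 CPM (0 in both) and Tnfsf9 at 21.62 CPM (0 and 12.21). On under 3 counts it was also above both for Tnf in granulocytes (171.7 CPM against 151.4 and 0) and in endothelial cells (16.06 CPM against 0 and 0). It lay below both sham libraries for Tnfrsf1b in microglia (37.51 CPM against 49.14 and 65.81), T cells (27.28 against 36.52 and 48.58) and granulocytes (0 against 30.39 and 31.5). The same held for Tnf (39.84 CPM against 54.71 and 69.85) and Tnfrsf1a (87.34 against 136.8 and 139.6) in monocyte-derived cells and for Tnfrsf1a in granulocytes (85.89 against 152.1 and 193.9). The granulocytes of this library were 21 cells, over which a floor of 3 counts is 259.0 CPM. Their lower values are thus not separated from low depth. Its Tnf in monocyte-derived cells rests on 2.28 counts, under a floor of 52.53 CPM. Stroke, time since surgery, sex and a single library cannot be told apart there.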

How the results depend on the processing

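Of 87 values tested for the members, 9 were called, and none of the 9 changed sign in any alternative. Of 1264 alternative values, 96 changed sign, all of values that were not called. The number of members called moved in these cases. In microglia at day 14 against sham it was 2, and 1 with the replicate block, which ended the call of Tnf. Leaving out 1 library gave 0 to 2. At day 2 it was 1, and 2 with only the 2 compared groups, where Tnf also passed (1.51, adjusted p 0.0478), with 0 to 1 for libraries left out. In endothelial cells between day 14 and day 2 it was 1, and 0 with library size alone, 0 with no filter and 0 to 1 for libraries left out. In monocyte-derived cells between these times it was 0, and 1 with DESeq2, no filter, the 2 compared groups or the replicate block, where Tnfsf9 passed, and 0 to 1 for libraries left out. In granulocytes at day 14 it was 2, with 1 under no filter and 1 to 2 for libraries left out. In blood neutrophils between day 14 and day 2 it was 0, and 1 with no filter. In aged monocyte-derived cells it was 1, and 0 with DESeq2, library size alone or only the aged groups, 2 with no filter, and 0 to 1 for libraries left out. Of neighbouring cell types, 6 pairs differed in brain and 2 in blood, and that of microglia and B cells for Tnfsf9 is limited by the depth of B cells. With at least 50 cells per library these were 3 and 4, and leaving out 1 library gave 2 to 6 in brain. Same-numbered libraries deviated together with correlations of -0.39 to 0.81 in brain and -0.42 to 0.61 in blood. Brain pairs with sham ran from -0.39 to 0.48. Between stroke day 2 and day 14 all were positive, at 0.11 to 0.61 in microglia, 0.25 to 0.62 in endothelial cells and 0.37 to 0.81 in monocyte-derived cells. The main fits took no pairing by number, and what the 2 stroke groups share by number was not tested. The block changed no call of a member beyond those named. A technical batch as a term was not run, because each library carries an identifier of its own in the metadata. Depth limits which members could be tested: 3 of 4 in granulocytes, 2 in border-associated macrophages and 1 in endothelial cells.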
